A study of Homo sapiens with 10 samples.

Results

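The immediate early response genes IER2, IER3, IER5 and IER5L and the gene MIDN were followed through 4 drugs that act on transcription in K562, a human chronic myeloid leukemia line. These 5 genes, of 59204 human genes counted, were chosen because JQ1 and A-485 moved several of them in opposite directions, so what those drugs did to them is given as a description, with no test. Opposite directions, with no overlap between the libraries of A-485, JQ1 and DMSO, were seen for IER5 and MIDN in new and total RNA. They were seen for IER2 and IER5L in total RNA, and not for IER3. With 2 libraries a group such a lack of overlap is only a description, and its share among all genes was not counted. Cells were treated for 2 hours with 1 µM A-485, which inhibits the acetyltransferases CBP and p300, with 1 µM JQ1, which displaces BET bromodomain proteins from chromatin, with 1 µM AZ-5576, an inhibitor of the pause-release kinase CDK9, with 1 µg/mL actinomycin D, which binds DNA and stops RNA polymerases, or with the solvent DMSO. All groups, DMSO included, received 100 µM 4-thiouridine in the final 1 hour, and each held 2 libraries. New RNA takes up 4-thiouridine, which is read as T-to-C conversions. Reads with conversions are called labelled and stand for RNA made in the last hour, while the reads together stand for the mRNA pool. Both were scaled to Drosophila RNA that had been added as a spike-in to the purified RNA, and values are counts per 1000000 spike-in counts, written below as normalised counts. In such bulk libraries fewer cells and less RNA per cell cannot be told apart.

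Immediate early genes are switched on within minutes of a growth or stress signal without new protein synthesis, and their mRNAs are usually short-lived. IER2 encodes a small nuclear protein that acts in transcription. IER3, also called IEX-1, encodes a membrane-associated regulator of stress signalling and apoptosis. IER5 encodes a nuclear protein that activates the heat shock factor HSF1 by bringing a phosphatase to it, and IER5L encodes its close relative. MIDN encodes midnolin, which carries nuclear proteins, among them immediate early transcription factors, to the proteasome without a ubiquitin tag. BET proteins, CBP and p300 and CDK9 all act at the step where polymerase is recruited to a promoter or released from its pause.

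The libraries were of similar size in total counts, while the labelled part differed widely between drugs. Total human counts ran from 14916671 to 17918971 per library, and the spike-in made up 10.0 to 11.7% of the reads. Labelled RNA of all genes together stood at 91.4% of DMSO with A-485, 64.7% with JQ1, 12.5% with AZ-5576 and 0.303% with actinomycin D. All 10 erythroid markers of K562 had more than 100 total counts in every library and summed to between 61502 and 79274 counts. Of 10 markers of other lineages, MS4A1, MPO and KRT5 were at 0 in all libraries, LYZ, EPCAM and PECAM1 were among those that passed 100 counts in all, and the list summed to between 1553 and 1831.

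The 5 genes lie on 4 chromosomes and are short. In hg38, IER2 (ENSG00000160888) spans chr19:13150415-13154908 on the plus strand and MIDN (ENSG00000167470) chr19:1248553-1259140 on the same strand. IER3 (ENSG00000137331) spans chr6:30743199-30744554 on the minus strand, IER5 (ENSG00000162783) chr1:181088712-181092899 on the plus strand and IER5L (ENSG00000188483) chr9:129175552-129178262 on the minus strand. The coding transcript taken for each gene was the highest in the APPRIS rank of principal transcripts and, among equals, the longest. Those of IER2, IER5 and IER5L have a single exon, as for 4.76% of 19115 protein-coding genes, that of IER3 has 2 exons and that of MIDN has 8. Among those genes 2.2% are shorter than IER3, 6.28% shorter than IER5L, 10.7% shorter than IER5, 11.5% shorter than IER2 and 26.1% shorter than MIDN.

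The stretches just before the transcription starts are shown because BET proteins, CBP and p300 and CDK9 are known to act at promoters. RefSeq (GRCh38.p14) gave starts for 4 of the 5 genes, and IER3 is not shown. Each line gives the 250 bases before a start, from 5′ to 3′ on the strand of the gene, and capitals mark every match, on either strand, to a searched motif. The windows are chr19:13150161-13150410 (plus) for IER2, chr1:181088450-181088699 (plus) for IER5, chr9:129178262-129178511 (minus) for IER5L, and chr19:1248333-1248582 and chr19:1249638-1249887 (plus) for the 2 starts of MIDN.
IER2: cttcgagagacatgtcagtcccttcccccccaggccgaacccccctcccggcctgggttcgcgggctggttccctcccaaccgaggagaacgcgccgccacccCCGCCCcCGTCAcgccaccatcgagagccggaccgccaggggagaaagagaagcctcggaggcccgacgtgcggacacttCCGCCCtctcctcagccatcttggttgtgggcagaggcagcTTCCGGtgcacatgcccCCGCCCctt
IER5: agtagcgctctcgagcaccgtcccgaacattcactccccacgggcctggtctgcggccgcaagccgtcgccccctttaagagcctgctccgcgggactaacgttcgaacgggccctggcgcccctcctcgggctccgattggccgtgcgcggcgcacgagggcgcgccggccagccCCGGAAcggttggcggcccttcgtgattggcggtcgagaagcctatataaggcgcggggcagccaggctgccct
IER5L: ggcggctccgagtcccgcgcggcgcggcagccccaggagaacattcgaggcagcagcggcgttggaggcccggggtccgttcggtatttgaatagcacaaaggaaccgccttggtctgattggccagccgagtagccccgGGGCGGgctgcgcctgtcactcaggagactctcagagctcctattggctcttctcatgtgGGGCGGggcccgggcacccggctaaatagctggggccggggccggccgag
MIDN, start 1: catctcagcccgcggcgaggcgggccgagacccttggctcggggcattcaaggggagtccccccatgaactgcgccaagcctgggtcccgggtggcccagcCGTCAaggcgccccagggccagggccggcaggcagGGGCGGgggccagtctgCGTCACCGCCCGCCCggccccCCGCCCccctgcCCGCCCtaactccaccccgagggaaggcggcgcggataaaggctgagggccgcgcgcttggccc
MIDN, start 2: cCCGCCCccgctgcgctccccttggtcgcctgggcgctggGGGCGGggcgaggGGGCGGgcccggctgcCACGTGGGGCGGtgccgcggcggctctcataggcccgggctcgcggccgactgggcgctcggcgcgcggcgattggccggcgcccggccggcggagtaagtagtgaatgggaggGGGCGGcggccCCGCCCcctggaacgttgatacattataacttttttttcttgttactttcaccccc

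These windows are rich in G and C. Their GC content was 69.6% for IER2, 70.4% for IER5, 68.4% for IER5L, and 76.8% and 73.2% for the starts of MIDN, against a median of 58.0% over 35116 RefSeq promoters. The motifs searched on both strands, over 300 bases that add 50 after the start, were the GC box GGGCGG, the ETS motif CCGGAA, the CRE core TGACG, the E-box CACGTG, the TATA box TATAAA, the AP-1 motif TGANTCA, the GATA motif AGATAA and the CArG box. GC boxes, held by 45.0% of all promoters, were matched 4 times for IER2, 2 times for IER5L, 5 times at start 1 and 6 times at start 2 of MIDN, and not for IER5. A CRE core, held by 24.6%, was matched once for IER2, at -140 to -136 from its start, and 2 times at start 1 of MIDN, at -149 to -145 and -97 to -93. The ETS motif, held by 17.2%, was matched once for IER2 at -26 to -21 and once for IER5 at -74 to -69, and the E-box, held by 7.26%, once at start 2 of MIDN. The TATA box (11.5% of promoters), AP-1 (7.71%), GATA (10.3%) and CArG (1.29%) letters were matched in none of these windows. For the TATA box only the exact letters TATAAA were searched. The variant TATATAAG near the end of the IER5 window was therefore not counted, and IER5 is not shown to lack a TATA box. At start 1 of MIDN a CRE core and GC boxes run into each other. A match is a description of letters and shows no binding.

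The 3′ ends were searched for ATTTA, the core of the AU-rich elements known to speed mRNA decay. In GENCODE release 29 the 3′ untranslated region of the transcripts taken above held 6 copies in IER3, 10 in IER5, 3 in IER5L, 2 in MIDN and 0 in IER2. These regions are 737 bases long in IER3, 3013 in IER5, 1286 in IER5L, 1868 in MIDN and 1050 in IER2. Copies in whole regions were not counted over all genes. Over the last 300 bases, where the reads of this 3′ kit fall, IER3 and MIDN held 1 copy, IER5L held 2 and IER5 and IER2 held 0, while 43.8% of 19100 genes held at least 1 copy and 17.0% at least 2. The copy nearest the 3′ end is shown in capitals for each gene that has one, at chr6:30743199-30743222 (minus), chr1:181092457-181092481 (plus), chr9:129175570-129175594 (minus) and chr19:1258862-1258886 (plus).
IER3: aataaaattgATTTActgtctgca
IER5: ttatttatttATTTAattataaaaa
IER5L: gattgtttaaATTTAtaatcttaat
MIDN: ttggatacctATTTAaatgtgtgtt

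New RNA of IER5 and MIDN stood lower with A-485 and higher with JQ1 than with DMSO. IER5 had 44.7 and 59.5 normalised labelled counts with A-485, 244 and 195 with JQ1, and 116 and 109 in DMSO. MIDN had 26.9 and 28.7 with A-485, 217 and 183 with JQ1, and 103 and 120 in DMSO. For both genes the 3 groups did not overlap, and both libraries of each drug lay on the same side of DMSO. With 2 libraries a group, a lack of overlap is only a description here and below. The share of all genes without overlap was not counted. In log2 terms IER5 differed from DMSO by -1.11 (SE 0.23) with A-485 and 0.97 (SE 0.21) with JQ1, and MIDN by -2.003 (SE 0.25) and 0.84 (SE 0.22). Between the drugs, A-485 against JQ1, the difference was -2.08 (SE 0.23) for IER5 and -2.84 (SE 0.25) for MIDN.

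IER2 and IER3 also made less new RNA with A-485, but with JQ1 they overlapped DMSO. IER2 had 130 and 133 normalised labelled counts with A-485, 358 and 280 with JQ1, and 312 and 245 in DMSO. IER3 had 49.2 and 53.4 with A-485, 206 and 164 with JQ1, and 227 and 202 in DMSO. JQ1 and DMSO thus stood next to each other in the order of levels without differing beyond their spread, and the A-485 libraries of both genes lay below all of them. The log2 difference with A-485 was -1.09 (SE 0.19) for IER2 and -2.07 (SE 0.22) for IER3, and with JQ1 0.19 (SE 0.18) for IER2 and -0.22 (SE 0.20) for IER3. The value for IER2 with JQ1 stood at 0.00 without JQ1 replicate 1 and at 0.38 without DMSO replicate 1. On a scale centred on the human genes by TMM, which moved all genes up by a median of 0.83 with JQ1, IER3 stood at 0.61, IER2 at 1.02, IER5 at 1.80 and MIDN at 1.67. So the sign of IER3 with JQ1 turns with the scaling, while with A-485 all 4 measured genes stayed lower on both scales.

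**Figure D1:**
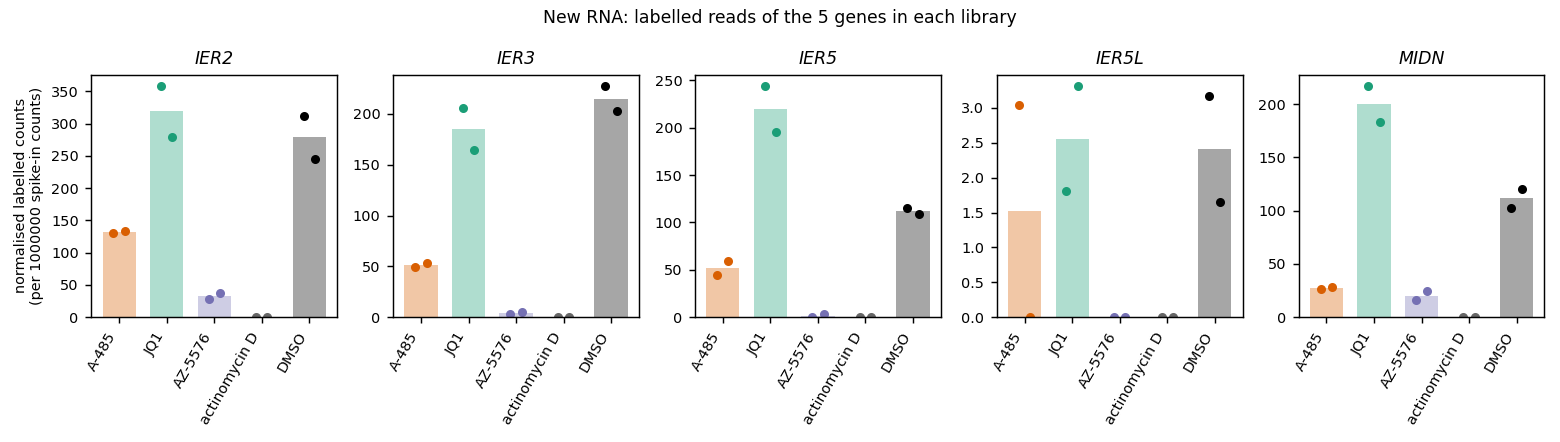
Normalised labelled counts (per 1000000 spike-in counts) of each gene (y axis, its own scale per gene) in A-485, JQ1, AZ-5576, actinomycin D and DMSO (x axis). Points are the 2 libraries and bars their mean. IER5 and MIDN are highest with JQ1, all but IER5L are lower with A-485 than in DMSO, and all are at or near 0 with actinomycin D.

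IER5L was too weak in new RNA to compare. It had 6 and 0 labelled counts with A-485, 4 and 7 with JQ1, and 6 and 3 in DMSO, and no library reached 10, the minimum for the tests. In the 4 genes that could be fitted, the mean was lower than DMSO with A-485 in 4 and higher with JQ1 in 3. Over all 7996 genes fitted, 4.86% were called lower with A-485 and 1.26% higher with JQ1, while JQ1 lowered 28.6%. These shares count called genes, not the sign of a mean, so they are on another measure than the counts of the 4 genes. They are given as background only, since both drugs were used to choose the genes. The median log2 difference of all genes was -0.09 with A-485 and -0.85 with JQ1. A gene called is one with an adjusted p under 0.05 in edgeR's quasi-likelihood test with Benjamini-Hochberg adjustment over all genes fitted. Nothing says that the 2 libraries of a group came from separate cultures, so p-values measure the spread between these libraries, which may be technical.

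The mRNA pool of IER5, MIDN and IER5L showed opposite moves too. IER5 had 322 and 296 normalised total counts with A-485, 1349 and 1233 with JQ1, and 576 and 569 in DMSO. MIDN had 1241 and 1199 with A-485, 3712 and 3745 with JQ1, and 2064 and 2383 in DMSO. IER5L, measurable here, had 27.4 and 13.1 with A-485, 88.1 and 81.9 with JQ1, and 46.4 and 44.0 in DMSO. In each of these genes the JQ1 libraries lay above both DMSO libraries and the A-485 libraries below them. The group means with JQ1 were 225% of DMSO for IER5, 188% for IER5L and 168% for MIDN, and those with A-485 were 54.0%, 44.8% and 54.9% in the same order. The log2 differences with A-485 were -0.89 (SE 0.12) for IER5, -1.16 (SE 0.33) for IER5L and -0.87 (SE 0.10) for MIDN. With JQ1 they were 1.17 (SE 0.11), 0.91 (SE 0.29) and 0.75 (SE 0.10) in that order. IER5L with A-485 rests on 54 and 26 counts, and stood at -1.78 without A-485 replicate 1 and at -0.72 without A-485 replicate 2.

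IER2 joined them in the pool, and IER3 did not. IER2 had 1436 and 1326 normalised total counts with A-485, 3545 and 2675 with JQ1, and 2336 and 2075 in DMSO. IER3 had 155 and 148 with A-485, 478 and 481 with JQ1, and 509 and 502 in DMSO. The mean of IER2 was 62.6% of DMSO with A-485 and 141% with JQ1. Its log2 difference with JQ1 stood at 0.278 without JQ1 replicate 1 and at 0.685 without JQ1 replicate 2. IER3 had the lowest mean of the 5 genes with A-485, 30.0% of DMSO, and with JQ1 it stood slightly below DMSO at 94.9%. The log2 differences with A-485 were -0.68 (SE 0.13) for IER2 and -1.74 (SE 0.15) for IER3, and with JQ1 0.50 (SE 0.12) for IER2 and -0.08 (SE 0.14) for IER3, which TMM scaling turned to 0.12. IER3 lies across from the antisense gene IER3-AS1, which had 21 to 60 total counts and at most 2 labelled counts. As the sources used here do not give the strand setting of the counting, reads of such partners cannot be told apart. The antisense partners of IER2 and IER5L had 0 to 4 total counts.

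In total RNA the mean was lower than DMSO with A-485 in 5 of 5 genes and higher with JQ1 in 4 of 5. Among 14572 genes fitted in total RNA, 1.2% were called lower with A-485 and 0.837% higher with JQ1, again as background to genes chosen on these drugs. Such shares count calls, not signs, and the median log2 difference of all genes was -0.04 with A-485 and -0.19 with JQ1. Set directly against each other, A-485 was lower than JQ1 in 4 of 4 genes in labelled RNA and 5 of 5 in total RNA. The median log2 difference of all genes for A-485 against JQ1 was 0.72 in labelled and 0.13 in total RNA. By calls, 3.14% of all genes were lower in labelled RNA and 24.8% higher, and 1.2% and 5.38% in total RNA. The balance of these calls depended on the scaling, with 251 lower and 1984 higher in labelled RNA, against 673 and 434 on the TMM scale, and 175 and 784 in total RNA, against 278 and 339. The log2 difference of A-485 from JQ1 in total RNA was -1.17 for IER2, -1.66 for IER3, -2.06 for IER5, -2.07 for IER5L and -1.61 for MIDN.

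**Figure D2:**
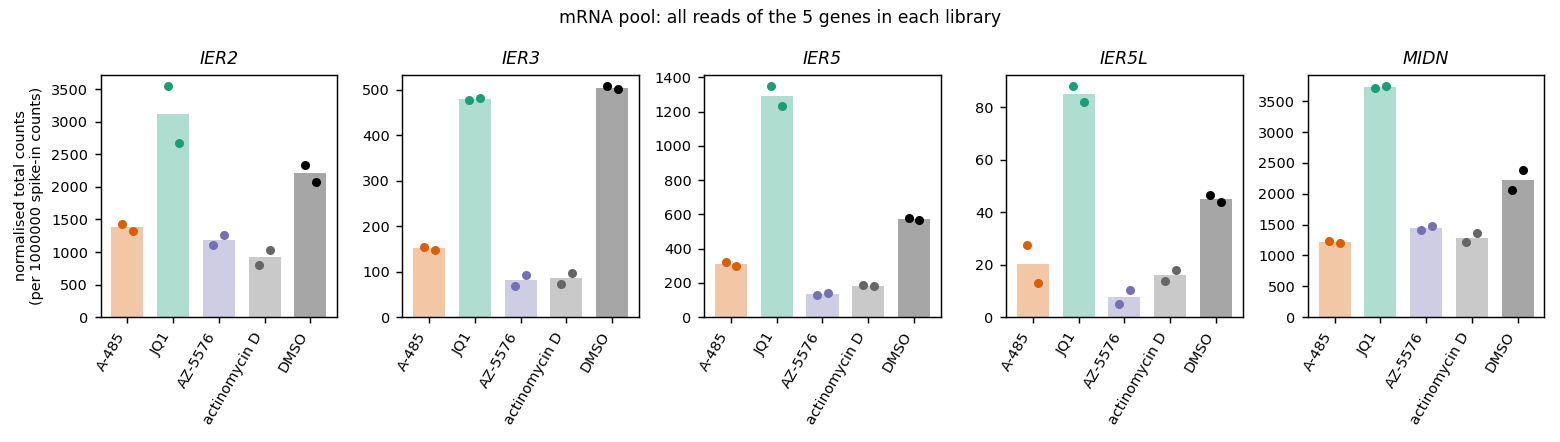
Normalised total counts (per 1000000 spike-in counts) of each gene (y axis, its own scale per gene) in A-485, JQ1, AZ-5576, actinomycin D and DMSO (x axis). Points are the 2 libraries and bars their mean. The JQ1 libraries are above DMSO for IER2, IER5, IER5L and MIDN and not for IER3, and the other 3 drugs are below DMSO for all 5 genes.

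MIDN stood apart in the labelled share of its reads with A-485. The labelled share is labelled counts over all counts of a gene in a library. Reads of new RNA without a conversion do not count as labelled. The share thus need not equal the part of the pool newly made. For MIDN it was 2.168% and 2.396% with A-485 (95% Wilson intervals 1.66 to 2.82% and 1.85 to 3.09%), 5.84% and 4.89% with JQ1, and 4.98% and 5.06% in DMSO (4.35 to 5.71% and 4.44 to 5.75%). The A-485 intervals of MIDN did not reach those of DMSO, and JQ1 lay on both sides of DMSO. The intervals hold counting error alone, as the reads carry no molecular identifiers. The share of IER3 was 33.9% ± 3.2 with A-485, 38.6% ± 6.3 with JQ1 and 42.5% ± 3.1 in DMSO (SD, n = 2 each). IER5 had 17.0% ± 4.4 with A-485, 17.0% ± 1.6 with JQ1 and 19.6% ± 0.65 in DMSO. IER2 had 9.54% ± 0.69 with A-485, 10.3% ± 0.25 with JQ1 and 12.6% ± 1.1 in DMSO. For IER3 and IER5 1 drug each, JQ1 and A-485 in that order, overlapped DMSO, while for IER2 both lay below it. The mean share of MIDN with A-485 was 45.5% of that in DMSO, against 75.7 to 86.6% for IER2, IER3 and IER5.

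AZ-5576 and actinomycin D were not used to choose the genes and could be tested, although the comparisons with DMSO share the DMSO libraries with those that were. With AZ-5576 new RNA fell in 4 of 4 genes, where 94.7% of all genes were called lower. IER2 had 28.4 and 36.9 normalised labelled counts with AZ-5576 and IER3 had 3.28 and 5.34, against the DMSO values above. MIDN had 15.9 and 24.3 and IER5 had 0 and 2.91. The AZ-5576 libraries of all 4 lay far below DMSO, and 18.0% of the DMSO mean was left for MIDN, 11.7% for IER2, 2.01% for IER3 and 1.30% for IER5.

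The sizes of these falls differed between the genes. MIDN fell by 2.46 on the log2 scale (SE 0.26, edgeR adjusted p = 8.69e-20) and IER2 fell by 3.09 (SE 0.22, edgeR adjusted p = 1.5e-44). IER3 fell by 5.60 (SE 0.32, edgeR adjusted p = 3.26e-68). IER5 fell by 6.13 (SE 0.40, edgeR adjusted p = 1.48e-51), a value that rests on 0 and 6 counts and stood at -5.24 without AZ-5576 replicate 1 and at -10.81 without AZ-5576 replicate 2, where the group has 0 counts. The median gene differed by -5.94, so IER3 and IER5 were near it, with 53.7% and 47.6% of genes lower, while 84.4% of genes were lower than IER2 and 90.3% lower than MIDN. On the TMM scale, which moved all genes up by a median of 3.25, IER2 stood at 0.42 and MIDN at 1.05 above DMSO, so the direction of these 2 flips with the scaling and that of IER3 and IER5 does not. IER5L had 0 and 0 labelled counts, at least 3.14-fold lower than DMSO by a limit of 3 counts over the group.

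Actinomycin D left at most 1 labelled count of each gene in a library. IER2 and MIDN had 0 and 0 labelled counts, at least 390-fold and at least 156-fold lower than DMSO by the same limit. IER3 had 0 and 1 counts, 0.111% of DMSO (95% exact interval 0.0028 to 0.62%), and IER5 had 1 and 0 counts, 0.213% of DMSO (0.0054 to 1.19%). IER5L had 0 and 0 counts, at least 3.39-fold lower. All 4 genes fitted were called lower by edgeR, at adjusted p = 1.76e-60 for IER5, 3.5e-61 for MIDN and less for IER2 and IER3, as were 99.2% of all genes. The residue of new RNA with AZ-5576 can be set against actinomycin D, a comparison that shares no library with the choice of genes. IER2, MIDN and IER3 were higher with AZ-5576 than with actinomycin D, 3 of 4 genes where 20.5% of all genes were called higher.

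By counts, IER2 had 52 and 76 labelled counts with AZ-5576 against 0 and 0 with actinomycin D, at least 46.0-fold higher (edgeR adjusted p = 3.64e-31). MIDN had 29 and 50 against 0 and 0, at least 28.4-fold higher (edgeR adjusted p = 2.87e-18). IER3 had 6 and 11 against 0 and 1, a ratio of 18.3 with a 95% interval of 2.87 to 766 (edgeR adjusted p = 0.000623), a call that TMM scaling lost at edgeR adjusted p = 0.474. IER5 had 0 and 6 against 1 and 0, a ratio of 6.47 (0.785 to 297), and was not called at edgeR adjusted p = 0.171. Without AZ-5576 replicate 1 IER5 passed at edgeR adjusted p = 0.023, and without AZ-5576 replicate 2 its sign turned.

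In the mRNA pool both drugs lowered all 5 genes. With AZ-5576 the edgeR test called 5 of 5 lower, where 12.9% of all genes were called lower, and with actinomycin D also 5 of 5, where 19.7% were. IER3 had 68.4 and 93.2 normalised total counts with AZ-5576 and 74.0 and 97.4 with actinomycin D. IER5 had 127 and 140 with AZ-5576 and 186 and 182 with actinomycin D, and IER5L had 4.92 and 10.2 and 13.9 and 17.9. IER2 had 1111 and 1260 with AZ-5576 and 806 and 1037 with actinomycin D, and MIDN had 1416 and 1485 and 1214 and 1362. None of these libraries overlapped the DMSO libraries, for which the share of all genes was not counted.

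By size the falls of IER3, IER5 and IER5L came before those of IER2 and MIDN. With AZ-5576 the log2 difference from DMSO was -2.64 for IER3 (SE 0.16, edgeR adjusted p = 7.1e-16), -2.55 for IER5L (SE 0.37, edgeR adjusted p = 2.65e-06) and -2.10 for IER5 (SE 0.13, edgeR adjusted p = 7.12e-16). It was -0.90 for IER2 (edgeR adjusted p = 4.92e-06) and -0.62 for MIDN (edgeR adjusted p = 2.03e-05). IER5L stood at -3.18 without AZ-5576 replicate 2 and at -2.14 without AZ-5576 replicate 1. With actinomycin D it was -2.56 for IER3, -1.64 for IER5, -1.26 for IER2 and -0.79 for MIDN, and IER5L, which kept 35.2% of its pool, had the highest edgeR adjusted p = 0.00102. The median gene differed by -0.15 with AZ-5576 and -0.27 with actinomycin D.

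Between AZ-5576 and actinomycin D the log2 differences of the pools ran from -1.05 for IER5L to 0.36 for IER2. IER5 alone was called, lower with AZ-5576 at a log2 difference of -0.46 (SE 0.13, edgeR adjusted p = 0.0424), where 0.371% of all genes were called lower. That call was lost without either A-485, AZ-5576 or actinomycin D library, at edgeR adjusted p = 0.0638 to 0.354. IER2 differed by 0.36 (edgeR adjusted p = 0.172), and passed at edgeR adjusted p = 0.0206 and 0.0182 without JQ1 replicate 1 or 2. IER3 differed by -0.08 (edgeR adjusted p = 0.932), IER5L by -1.05 (0.244) and MIDN by 0.17 (0.611). IER5L rests on 9 and 21 total counts with AZ-5576 and 28 and 39 with actinomycin D. Its missed threshold does not show that the 2 pools were alike.

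By labelled share the 5 genes ranged from very fast to moderate turnover. All 5 lost more of their pool after actinomycin D than most genes did. In DMSO labelled reads made up 42.5% of the reads of IER3, 19.6% of IER5, 12.6% of IER2, 5.28% of IER5L and 5.02% of MIDN, against a median of 3.71% over 10409 genes with a mean of at least 50 total counts in DMSO. Of those genes 99.4% had a lower share than IER3, 95.3% than IER5 and 88.9% than IER2, but only 63.3% than IER5L and 61.4% than MIDN. After actinomycin D 17.0% of the DMSO pool of IER3 was left, 32.1% of IER5, 35.2% of IER5L, 41.8% of IER2 and 57.9% of MIDN, where the median gene kept 84.5%. Of the 10409 genes 0.53% kept less than IER3, 1.92% than IER5, 2.53% than IER5L, 4.09% than IER2 and 10.96% than MIDN. With AZ-5576 16.0% of IER3, 16.7% of IER5L, 23.3% of IER5, 53.8% of IER2 and 65.2% of MIDN was left, against a median of 90.8%. IER5L thus had a labelled share near that of MIDN and a smaller part of its pool left, on 9 labelled counts in DMSO. IER3, IER5 and IER5L, with 6, 10 and 3 copies of ATTTA in their 3′ untranslated regions, kept less after actinomycin D than IER2 with 0. MIDN, with 2 copies, kept more than IER2. These copies were not set against the length of the regions or against all genes, and a link between them and decay was not tested.

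**Figure D3:**
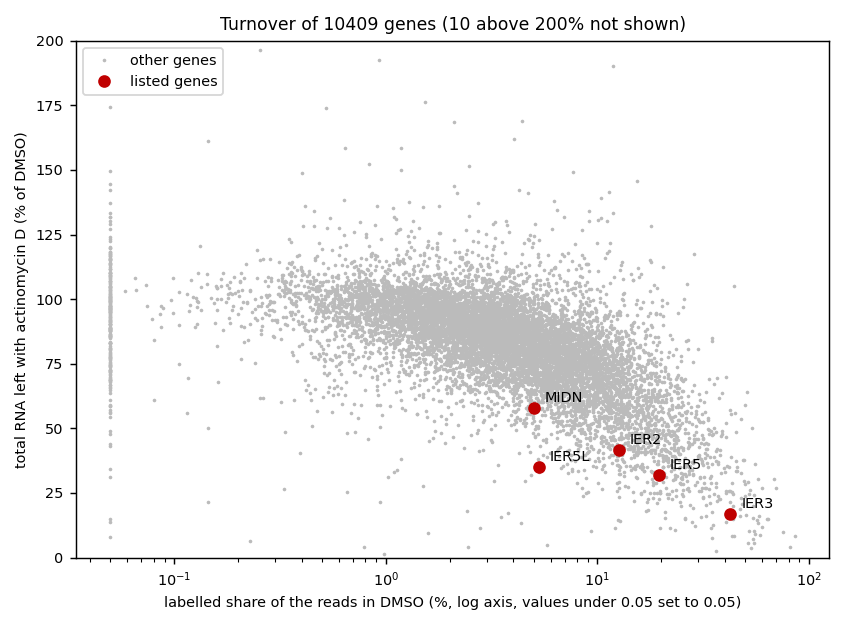
Labelled share of reads in DMSO (x axis, percent, log scale) and total RNA left with actinomycin D (y axis, percent of DMSO) for 10409 genes, with the 5 genes in red and 10 genes above 200% not shown. IER3 sits at the lower right with a share of 42.5% and 17.0% left, and MIDN nearest the bulk of genes at 5.02% and 57.9%.

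None of the measured nearest protein-coding genes was called with both drugs in opposite directions. The share of all genes called so was not counted. In total RNA 1.2% of all genes were called lower with A-485 and 0.837% higher with JQ1. With so few such calls, 0 among these neighbours does not set them apart from other genes. IER2 starts 32 bases from STX10, a syntaxin gene on the other strand, whose first bases lie inside the IER2 window printed above. In total RNA STX10 differed from DMSO by -0.11 (SE 0.17, edgeR adjusted p = 0.998) with A-485 and -0.10 (SE 0.17, edgeR adjusted p = 0.734) with JQ1. CIRBP, a cold-inducible RNA-binding protein gene, begins 244 bases after the end of MIDN on the same strand. It differed by 0.34 (edgeR adjusted p = 0.654) with A-485 and 0.47 (edgeR adjusted p = 0.126) with JQ1 in labelled RNA, and by 0.12 (0.987) and 0.32 (0.0854) in total RNA. FLOT1, a flotillin gene that begins 466 bases after the 3′ end of IER3 on the same strand, differed by -0.07 (0.998) with A-485 and -0.04 (0.881) with JQ1 in total RNA. Of 8 neighbours measured in total RNA, 0 were called by edgeR or DESeq2 with A-485, AZ-5576 or actinomycin D, with 1 in each when p-values below 0.05 were left unadjusted, and 1 was called lower with JQ1, DDR1 at -0.41 (edgeR adjusted p = 0.0386), a receptor kinase gene 131867 bases from IER3. The shares of all genes called lower in total RNA were 1.2%, 12.9%, 19.7% and 7.35% in that order of drugs. The call of DDR1 was lost without 5 of the 10 libraries in turn and on the TMM scale (edgeR adjusted p = 0.439). In labelled RNA 6 neighbours could be fitted, and all 6 were called lower both with AZ-5576 and with actinomycin D, where 94.7% and 99.2% of all genes were. With A-485 DDR1 was called lower there at -2.98 (edgeR adjusted p = 0.00013), a call lost without A-485 replicate 2 or DMSO replicate 2 and not made by DESeq2 (DESeq2 adjusted p = 0.764). With JQ1 DDR1 was lower at -4.30 (edgeR adjusted p = 1.09e-07, DESeq2 adjusted p = 0.151) and so was PTPA, a phosphatase activator gene next to IER5L, at -2.84 (edgeR adjusted p = 0.0036, lost without JQ1 replicate 2 and on the TMM scale), where 28.6% of all genes were lower. A p that misses the threshold does not show that a neighbour did not change.

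**Figure D4:**
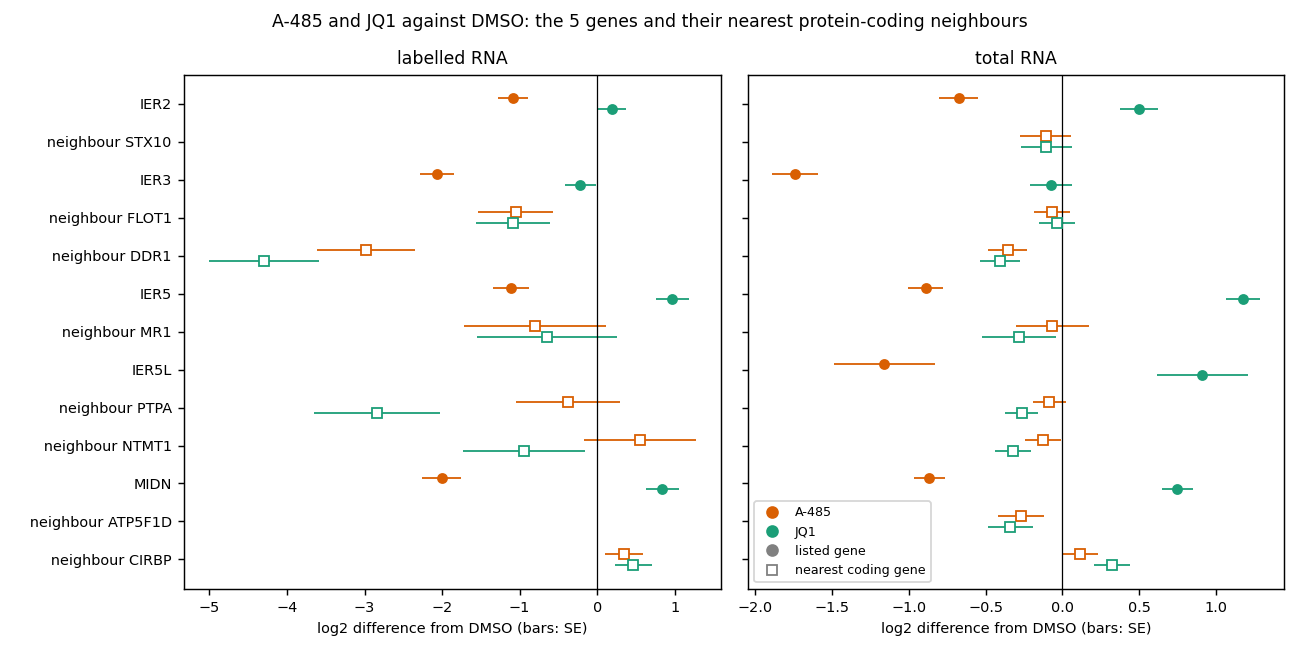
Log2 difference from DMSO (x axis, bars are SE) with A-485 and JQ1 for the 5 genes (filled circles) and their nearest protein-coding genes (open squares), in labelled RNA (left) and total RNA (right). In total RNA the neighbours stay between -0.41 and 0.32, while IER5, IER5L and MIDN lie on opposite sides of 0.

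Other early response genes give the setting. In total RNA with A-485, 11 of 21 measured immediate early transcription factors were called lower and 0 higher by edgeR (1 when p-values below 0.05 were left unadjusted, and 0 by DESeq2), with a median of -1.15 on the log2 scale, where 1.2% of all genes were lower, 0.0343% higher and the median of all genes was -0.04. The 11 lower became 7 without A-485 replicate 1, A-485 replicate 2 or DMSO replicate 2. ID2, an inhibitor of helix-loop-helix factors, fell by 2.87 (edgeR adjusted p = 3e-15) and its relative ID1 fell by 2.18 (edgeR adjusted p = 1.11e-13). With JQ1 the list had 3 lower and 2 higher, with a median of -0.22, where 7.35% of all genes were lower and the median of all genes was -0.19. That share stands for 1071 genes, and 276 were lower without DMSO replicate 2, 288 on the TMM scale and 1972 with a replicate block, while the list had 3, 3 and 4 lower. The 2 that rose were JUNB, an AP-1 subunit, with 1546 and 1327 total counts with JQ1 against 589 and 642 in DMSO (log2 difference 1.00, SE 0.14, edgeR adjusted p = 3.24e-06), and the zinc finger factor EGR1 with 987 and 815 against 373 and 281 (1.24, SE 0.21, edgeR adjusted p = 0.000897), a call that DESeq2 did not make (DESeq2 adjusted p = 0.0512). MYC fell by 1.98 (edgeR adjusted p = 2.03e-09). JUNB was lower with A-485 than with JQ1, at -1.43 (SE 0.14, edgeR adjusted p = 1.34e-09), and so were 9 of 21 factors, with 0 higher by edgeR (2 when left unadjusted, and 0 by DESeq2).

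Early genes that feed back on signalling or survival were also split. Of 27 measured in total RNA, A-485 lowered 7 and raised 0 by edgeR (1 when p-values below 0.05 were left unadjusted, and 0 by DESeq2), with a median of -0.48, and JQ1 lowered 5 and raised 3, with a median of -0.09. The shares of all genes were 1.2% lower with A-485, and 7.35% lower and 0.837% higher with JQ1. The 7 lower with A-485 became 4 without A-485 replicate 1, A-485 replicate 2 or DMSO replicate 2 and 12 without JQ1 replicate 1 or 2, and the median with JQ1 turned to 0.10 on the TMM scale. The 3 higher with JQ1 became 1 without JQ1 replicate 2 or either DMSO replicate, and the 5 lower became 3 without DMSO replicate 2. PPP1R15A, a phosphatase subunit of the stress response, fell by 1.39 with A-485 (edgeR adjusted p = 5.01e-07). GADD45B, a stress sensor, had 104 and 77 total counts with JQ1 against 11 and 10 in DMSO, higher by 2.87 (SE 0.49, edgeR adjusted p = 0.000121). The lists are 26 and 32 genes long, and 19 and 25 could be fitted in labelled RNA. There A-485 lowered 10 of 19 factors and 10 of 25 feedback genes, and raised 1 and 0 by edgeR (0 feedback genes also when left unadjusted and by DESeq2), where 4.86% of all genes were lower and 0.163% higher, and the 10 feedback genes became 5 without A-485 replicate 2. JQ1 lowered 3 and 5 and raised 1 and 2, where 28.6% of all genes were lower and 1.26% higher. The 1 factor raised with each drug was lost without either library of that drug or DMSO replicate 2. On the TMM scale JQ1 lowered 1 and 2 and raised 3 and 4, and the medians turned from -0.21 and -0.40 to 0.62 and 0.42.

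With AZ-5576 and actinomycin D most of these early genes were called lower in total RNA. In total RNA 19 of 21 factors were called lower by edgeR both with AZ-5576 and with actinomycin D, at medians of -2.05 and -1.93, and 21 of 27 feedback genes with each, at -1.85 and -1.49. Of all genes 12.9% were lower and 0.782% higher with AZ-5576, and 19.7% were lower with actinomycin D. In labelled RNA 19 of 19 and 24 of 25 were lower with each drug, near the 94.7% of all genes with AZ-5576 and 99.2% with actinomycin D. Between AZ-5576 and actinomycin D labelled RNA was higher in 8 of 19 factors and 6 of 25 feedback genes. Of all genes 20.5% were, a share not matched on counts. On the TMM scale labelled RNA was higher in 3 factors and 0 feedback genes. The 6 became 3 without AZ-5576 replicate 1, 2 without actinomycin D replicate 1 and 1 without actinomycin D replicate 2. In total RNA 2 factors were higher, EGR1 and KLF10, where 2.0% of all genes were. The call of KLF10 was lost on the TMM scale (edgeR adjusted p = 0.0806), with DESeq2 (DESeq2 adjusted p = 0.0529) and without any single AZ-5576, actinomycin D or DMSO library. The factors ID1 and ID2 and the feedback genes ZFP36L2 and BTG2 were lower, where 0.371% of all genes were, and without actinomycin D replicate 2 ID1, ID2 and BTG2 were not called. ID1 was also lost without AZ-5576 replicate 2, and ID2 and BTG2 without AZ-5576 replicate 1.

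Genes outside these families whose new RNA followed the same pattern were looked up by distance, as a description. The distance is the root mean square difference of log2(normalised labelled count + 1), centred on DMSO, over the 6 libraries of A-485, JQ1 and AZ-5576, for 2066 genes whose DMSO libraries average 50 labelled counts or more. Nearest to IER2 were TXNIP at 0.35, SLC25A25 at 0.36 and CMTM6 at 0.38, where the median gene lay at 1.36. Nearest to IER3 were PKM at 0.33, ESYT1 at 0.41 and FHL3 at 0.41 (median 1.47). Among the nearest to IER5 were SQSTM1 at 0.49 and FTH1 at 0.63 (median 1.72), and to MIDN INSIG1 at 0.55, FLNA at 0.67 and TXNIP at 0.70 (median 1.97). INSIG1 had 41 and 28 labelled counts with A-485, 255 and 226 with JQ1, 11 and 11 with AZ-5576, and 143 and 94 in DMSO. IER5 and MIDN thus had no gene as near to them as the nearest of IER2 and IER3, and 7 of the 12 nearest places were kept on the TMM scale.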

How the data were processed

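The data were 3 deposited tables of raw counts per gene, with no normalisation by the authors: all human reads, human reads with T-to-C conversions, and Drosophila spike-in reads. Per the labels' protocols, iodoacetamide-treated RNA received 5% Drosophila S2 material after purification and was made into QuantSeq 3′ mRNA libraries, so the spike-in stands for an amount of RNA, not for cells. Per the submitters' processing notes, the builds were hg38 and dm6, and the tools included bedtools, Trim Galore 0.6.5 and bcl2fastq 2.17.1.14. Aligner, conversion caller and strand setting: not given in the sources used here.

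Sample titles gave the groups, and all 10 libraries entered. Spike-in totals per library ran from 1817677 to 2212752, and labelled totals from 1410 with actinomycin D to 448401 in DMSO. The main test was edgeR's robust two-sided quasi-likelihood test (edgeR 4.0.16, R 4.3.3). Library size was the spike-in total, the 5 groups shared a single fit, and a gene entered with 10 or more counts in 2 or more libraries, which left 7996 genes for labelled and 14572 for total RNA at 5 residual degrees of freedom. Benjamini-Hochberg adjustment ran over all of them, with a threshold of 0.05. Biological coefficients of variation were 24.8% (labelled) and 10.9% (total). The SE of a log2 difference came from its F statistic. The fits were tested on simulated data. GENCODE release 29 placed 55838 of 59204 human identifiers.

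The genes, the lists and the tests were chosen with earlier results of these data known. Named genes were the 5 genes, their nearest protein-coding gene on each side, the 3 nearest genes by pattern for each, and, from each list, the called genes with the highest counts or largest changes, of which a part is given. A few genes that the rule or the marker lists hold are not reported here. Alternatives were TMM scaling, DESeq2 1.42.0 with spike-in and with median-of-ratios size factors, no filter on low counts, only the 2 groups compared, a replicate block, and leaving out each library.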

Additional observations from a re-analysis of the deposited data

How the results depend on the processing

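The count of the 5 genes called in either direction stayed within 1.5 times in the tested comparisons except in total RNA of AZ-5576 against actinomycin D, where 1 gene was called, 0 when only the 2 groups were fitted, and 0 to 2 when single libraries were left out. Without a filter on low counts the 1 gene called there was IER2 (edgeR adjusted p = 0.0445) in place of IER5 (0.0592). In labelled RNA of AZ-5576 against DMSO the 4 called lower became 2 lower and 1 higher with TMM: there IER2 stood at 0.42 (edgeR adjusted p = 0.0991) and MIDN at 1.05 (0.000842), and with DESeq2's median-of-ratios MIDN stood at 0.56 (DESeq2 adjusted p = 0.045) and IER2 at -0.06 (0.804). Both settings assume that most genes did not change, whereas labelled RNA of all genes stood at 12.5% of DMSO. In actinomycin D against DMSO the labelled call of IER5 was lost with median-of-ratios (DESeq2 adjusted p = 0.0662). Of the values of single genes in the tested comparisons, 413 kept their state as called or not called, with no called value turned. These include values that turned sign while called in neither fit, such as IER5 (AZ-5576 against actinomycin D, labelled RNA) without AZ-5576 replicate 2. A call was lost at the same sign in 12 and gained in 4, and in 3 the sign turned with a call in either fit. Of the untested values 386 moved by less than the pooled SD of the libraries' log2 values in the 2 groups, and 46 by that or more. With 2 libraries a group this SD can be small. TMM changed the balance of calls over all genes in 8 of 12 comparisons by more than 10 percentage points. In labelled RNA it gave 415 lower and 444 higher against 2286 and 101 with JQ1, 673 and 434 against 251 and 1984 for A-485 against JQ1, and 2206 and 471 against 7574 and 16 with AZ-5576. In total RNA it gave 288 and 214 against 1071 and 122 with JQ1, 278 and 339 against 175 and 784 for A-485 against JQ1, 1210 and 546 against 1878 and 114 with AZ-5576, 1153 and 791 against 2874 and 49 with actinomycin D, and 76 and 186 against 54 and 292 for AZ-5576 against actinomycin D. Replicate numbers share only a number: deviations of same-numbered libraries correlated at -0.06 to 0.23 over the 10 pairs of groups in total RNA, 6 of them above 0.1, and at -0.05 to 0.15 in labelled RNA. With a replicate block 4, 4 and 3 genes were called in labelled RNA (AZ-5576 against DMSO, actinomycin D against DMSO, AZ-5576 against actinomycin D), and 5, 5 and 1 in total RNA, as without it. Over all genes in total RNA the block moved the calls lower with JQ1 to 1972, against 1071 without it, and those higher for A-485 against JQ1 to 1265, against 784. Few labelled counts limit IER5L throughout and IER5 with AZ-5576.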
